A study of Mus musculus with 6 samples.

Results

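Cytosolic ribosomal protein genes were followed across 6 two-channel oligonucleotide arrays of mouse hypothalamus. The set held every probe whose platform gene symbol begins with Rpl or Rps and is followed by a protein number, with the ribosomal S6 kinases left out. This gave 36 of the 8726 genes named on the array, held by 38 probes, of which 23 belonged to the large subunit and 15 to the small subunit. Rpl11 and Rps29 had 2 probes each. The collagen group was male DBA/1 mice, a strain prone to collagen arthritis, aged 8 weeks, that received type II collagen (100 ul) mixed with Complete Freund's adjuvant (100 ul) by injection into the skin. The control group was male DBA/1 mice of the same age that received 200 ul of the adjuvant alone. Both groups were given LPS on day 24 and were then killed. The label gives the kill time as 31, but its wording leaves unclear whether days or hours are meant. The control mice thus shared adjuvant and LPS with the collagen mice, and the volume of adjuvant differed along with collagen, so the effects of collagen and of adjuvant volume cannot be told apart. Each of 3 biological replicates set collagen RNA directly against control RNA on 2 arrays with the dyes swapped, and each array was scanned 3 times. The labels do not say whether a replicate was 1 mouse or a pool, so p-values measure only the spread between these samples. Whole hypothalamus was used, so fewer cells of a type and less RNA per cell cannot be told apart.

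A cytosolic ribosome joins a large subunit, which forms the peptide bond, to a small subunit, which reads the messenger RNA. Ribosomal protein messages are among the most abundant transcripts of most cells, neurons included, and the proteins are normally made in matched amounts because each ribosome holds 1 copy of nearly every one. Many of these messages open with a C followed by a run of pyrimidines, and their translation depends on the mTOR kinase through this tract. Control at that step acts on ribosome loading and need not change the amount of the message, which is what an array measures.

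The letters around the transcription starts of a few members are shown because that tract is the feature that ribosomal protein messages are known to share. RefSeq promoter entries on mouse build GRCm38.p6 matched 29 of the 36 member genes. The search was for C followed by at least 4 bases that are each C or T, beginning within 5 bases of the annotated start, on the strand of the gene only. It found the letters in 8 of 29 member genes, or 27.6%, against 21.2% of the 27025 genes with an entry and 24.6% of 69 mitochondrial ribosomal protein genes. The member share thus lay near the shares of the other genes, and a missing match says only that these letters were not in this window. Capitals mark the matched letters in windows of 40 bases before and 20 bases from the start. Rps6, Rpl13a and Rpl38 had a ratio on all 6 arrays, whereas Rps27 and Rpl7a had one on the replicate 3 arrays alone, as described further on.
Rps6, chr4:86857348-86857407, minus strand: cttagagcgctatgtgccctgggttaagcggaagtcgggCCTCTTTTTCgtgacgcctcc
Rpl13a, chr7:45128726-45128785, minus strand: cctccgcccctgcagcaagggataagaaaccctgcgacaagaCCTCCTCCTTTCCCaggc
Rpl38, chr11:114668540-114668599, plus strand: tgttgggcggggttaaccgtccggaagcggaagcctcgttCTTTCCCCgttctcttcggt
Rps27, chr3:90213629-90213688, minus strand: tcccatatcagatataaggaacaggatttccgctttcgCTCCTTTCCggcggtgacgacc
Rpl7a, chr2:26910767-26910826, plus strand: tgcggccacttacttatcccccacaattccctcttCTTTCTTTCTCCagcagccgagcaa
The search allowed a match to begin only within 5 bases of the annotated start, so its place in these 5 windows was set in advance. In Rpl7a the run of pyrimidines began before the capitals, which start where the search began. Of the genes with an entry, the tract was found in 4 of the 19 with a ratio on all 6 arrays. It was found in 3 of the 8 with a probe read in replicate 3 alone.

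An array gave a ratio for a probe where both channels held signal above the local background, and between 46.1% and 84.9% of all spots did so. The array of replicate 1 with collagen in Cy3 stood apart in its ratios, with an SD over spots of 1.66 on the log2 scale, against 0.382 to 0.671 on the other 5 arrays. The arrays of replicate 3 stood apart in their signals. Over all spots, the rank correlation of signal was 0.661 to 0.906 between the arrays of one replicate and 0.587 to 0.824 between replicates 1 and 2, but 0.201 to 0.345 between replicate 3 and the other two. The cause was not tested. Probe names come from the position of a spot, with one order of positions used for all 6 arrays, and whether replicate 3 was printed in the same layout is not known. Which spots held a value in the authors' deposited table correlated with which spots held a ratio here at 0.621 and 0.741 on the replicate 3 arrays, against 0.814 to 0.904 on the others. Of 18 hypothalamic marker genes, 13 had a probe, and all 13 were measured on at least 1 array. Of all probes, only 443 were measured on no array, so this count cannot serve as a check of the tissue. Cartpt, Gal, Gnrh1, Oxt and Pmch were measured on all 6, or 38.5% of the 13, against 23% of all probes. Ratios are collagen over control on the log2 scale, reading channel A as Cy3 and channel B as Cy5. That reading follows the order of the channels in the labels and is not stated there. If it is wrong, every direction given for collagen turns round.

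Ribosomal protein spots were bright. The signal of a spot was ranked among the spots measured on its array, and this percentile was averaged over the 2 arrays of a replicate and then over replicates. The median of the 38 members was 78.7, against 36.5 for all measured probes. A mean percentile above 90 was reached by 11 of 38 members, or 28.9%, against 2.59% of all measured probes. Of these 11, 7 had a percentile in replicate 3 alone. Without replicate 3 the count was 4 of 26, or 15.4%, against 2.61% of all measured probes. Brightness also depends on the printed oligonucleotide, so the order is one of spots and not of transcripts. Large subunit probes had a median of 78.3 and small subunit probes 80.1, so the subunits sat at nearly the same height. Mitochondrial ribosomal protein probes had a median of 53.7 and oxidative phosphorylation probes 69.5.

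Detection split the members. A ratio on all 6 arrays was obtained for 22 of 38, or 57.9%, against 23% of all probes. A further 12 of 38, or 31.6%, had a ratio on both replicate 3 arrays and on none of the 4 arrays of replicates 1 and 2, against 17.6% of all probes. These were Rpl3, Rpl7a, Rpl9, Rpl29, Rpl34, Rpl36al and Rpl37a, 1 of the Rpl11 probes, Rps15, Rps20, Rps27 and 1 of the Rps29 probes. The remaining 4 were read on some arrays: Rps4l on 5, Rpl35 and Rpl3l on 4 and Rpl26 on 3. Both replicate 3 arrays read 37 of the 38 members, the exception being Rps4l, against 55.4% of all probes. All 4 arrays of replicates 1 and 2 read 23 members, or 60.5%, against 32.8% of all probes. In the authors' deposited table, whose missing values were set by the authors, 11 members had a value on both replicate 3 arrays and on no other, and 13 had a value on all 6.

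**Figure D1:**
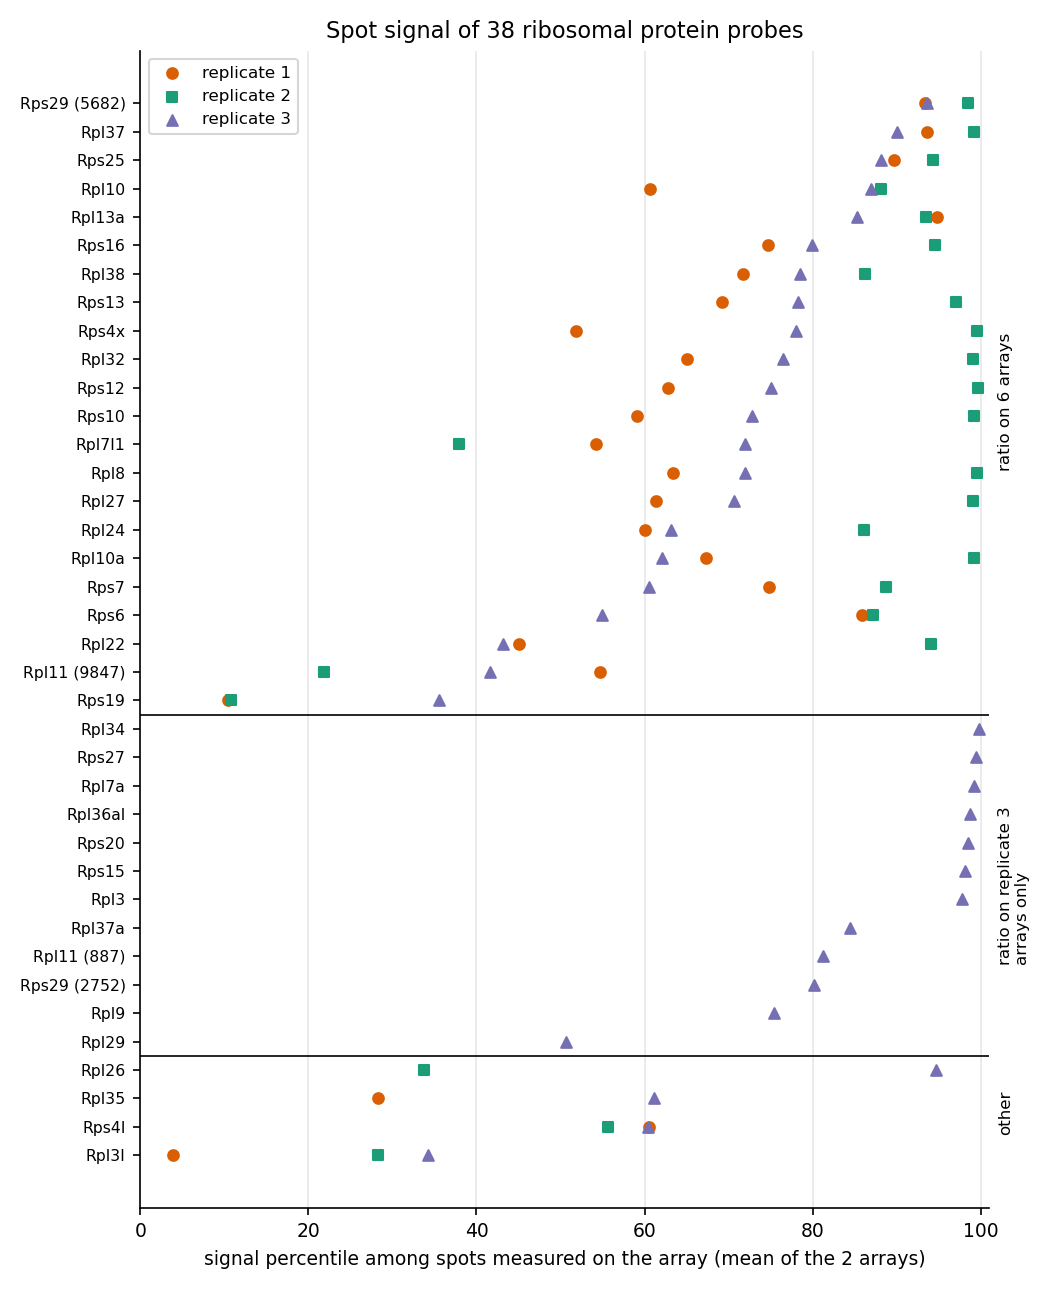
Signal percentile of each of the 38 ribosomal protein probes among the spots measured on an array, averaged over the 2 arrays of a replicate; a missing symbol means no ratio in that replicate. Of the 12 probes read in replicate 3 alone, 7 lie above 97 there, and the 22 probes read on all 6 arrays mostly stand highest in replicate 2.

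The 12 members read in replicate 3 alone were not dim there. Their replicate 3 percentiles ran from 50.7 for Rpl29 to 99.8 for Rpl34, with a median of 97.9. Rps27, a small subunit protein with a zinc finger, had a first-scan signal per pixel of 30095 in collagen RNA and 37327 in control RNA in replicate 3, where collagen RNA carried Cy3. With the dyes swapped it had 17535 in collagen RNA and 6091 in control RNA. Such signals per pixel were not scaled between the channels. On the 4 arrays of replicates 1 and 2 the channel B signal of Rps27 was 0, and channel A held 366 to 964. A deposited 0 marks a rejected channel and is no measured absence of signal. The spot at the position of Rps27 was thus among the brightest of replicate 3, while the other replicates gave no channel B signal there. Snap25, a neuronal gene, and 2 of the 3 Gapdh probes were likewise read in replicate 3 alone, at percentiles of 98.5, 93.4 and 92.8. Gapdh probe 9900 had a ratio on 3 of the 4 arrays of replicates 1 and 2. Its percentiles were 31.0 and 22.3 in these replicates, against 94.1 in replicate 3. Actb, also abundant, was not read in replicate 3 alone. Its probes 2123, 4204 and 4646 had a ratio on all 4 of these arrays and on both replicate 3 arrays. The split seen for Rps27 appeared for Rpl34 as well. On the replicate 3 arrays Rpl34 had 29729 in collagen RNA and 33109 in control RNA with collagen in Cy3. With the dyes swapped it had 29441 in collagen RNA and 10539 in control RNA.

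Rps29, whose product sits in the head of the small subunit, showed both patterns at once. Its probe 5682 had a ratio on all 6 arrays and percentiles of 93.3, 98.5 and 93.6 in replicates 1, 2 and 3. Its probe 2752 had a percentile of 80.1 in replicate 3 and no ratio in replicates 1 and 2. One spot named Rps29 was thus bright in replicates 1 and 2 while the other gave no ratio on the same arrays. Rpl11 also had a probe of each kind, with the probe read on all 6 arrays at 54.7, 21.8 and 41.5 and the other at 81.2 in replicate 3.

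The 12 members read in replicate 3 alone were picked for having no ratio on the 4 arrays of replicates 1 and 2. No scan there could therefore hold signal in both channels. Channel B held signal for 0 of the 12 in any scan on these arrays, which largely follows from that choice. Channel A held signal for all 12 on each array in at least 1 scan, at a median of 1.65 to 2.16 times the local background, close to the 1.84 to 2.33 times of all probes. On the replicate 3 arrays their medians were 13.5 and 7.02 times background in channel A and 21.7 and 25.7 times in channel B. The 22 members read on all 6 arrays ran the other way between replicates 2 and 3. Their channel A medians were 27.5 and 32.3 times background in replicate 2, against 3.85 and 1.72 times in replicate 3. Among all 876 probes above the 75th percentile on both replicate 3 arrays, 207 or 23.6% had no ratio on the arrays of replicates 1 and 2. Of the 14 members above that height, 8 or 57.1% had none.

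**Figure D2:**
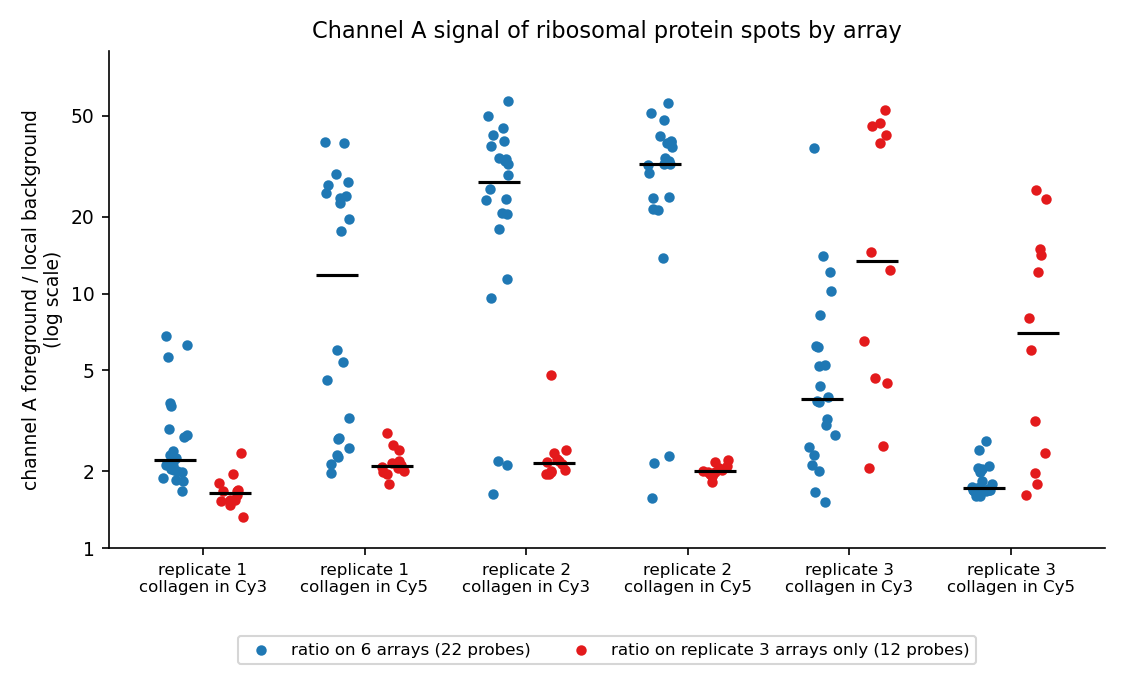
Channel A foreground over local background (log axis) on each array for the 22 ribosomal protein probes read on all 6 arrays and the 12 read in replicate 3 alone; black bars are medians. The 12 probes lie near 2 on the arrays of replicates 1 and 2 and reach a median of 13.5 and 7.02 on those of replicate 3.

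Place on the array differed between these sets, as seen over block rows 2 to 7, a range chosen after the places of the members were known. Of the 22 members read on all 6 arrays, 20 lay in these rows of the 12 printed rows, against 4 of the 12 read in replicate 3 alone. Of all probes, 20.9% in these block rows and 25.1% in the others were read on all 6 arrays, and 16.4% and 18.7% in replicate 3 alone. All 7 members in block row 6 had a ratio on all 6 arrays, and there only 3.45% of all probes were read in replicate 3 alone. In block row 6 the rank correlation of signal between replicates 2 and 3 was 0.572, whereas over the 12 block rows it ran from 0.118 to 0.572. Between replicates 1 and 2 it ran from 0.604 to 0.920. The part of printing in the detection of these members was not tested.

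Collagen changed no ribosomal protein probe past the threshold. Over the 2316 probes that every array measured, limma with Benjamini-Hochberg adjustment called 0% of probes at an adjusted p under 0.05, and 0 of the 22 tested members. The smallest adjusted p of any probe was 0.872. At an unadjusted p under 0.05 it gave 25 probes, or 1.08%, and again 0 members. The member means ran from -0.48 for Rps4x to 0.31 for Rpl24, with 6 above 0 and 16 below. A mean above 0 was found for 33.7% of all tested probes. The median over members was -0.12, against -0.09 over all tested probes.

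The replicates did not share a direction. The median of the members was -0.44 in replicate 1, 0.16 in replicate 2 and 0.05 in replicate 3, an SD of 0.319 over replicates. In replicate 1, 5 of 22 members were above 0, against 34.1% of all tested probes. In replicate 2, 21 of 22 were above 0, against 46%, and the 21 lay between 0.04 and 0.32, with Rps19 at -0.15. In replicate 3, 13 of 22 were above 0, against 48.5%. The sign was the same in all 3 replicates for 5 members, against 23.6% of all tested probes, and on all 6 arrays for 0 members, against 0.777%. The sign of the members' median rested on replicate 1. Without replicate 1 the median was 0.12 and 19 of 22 members were above 0, against 46.2% of all probes tested there. The median was -0.26 without replicate 2 and -0.16 without replicate 3. Within replicate 1, the array with collagen in Cy3 had 3 of 22 members above 0 and its partner 19 of 22. Of all 2316 tested probes, 780 and 1322 were above 0 on these 2 arrays.

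**Figure D3:**
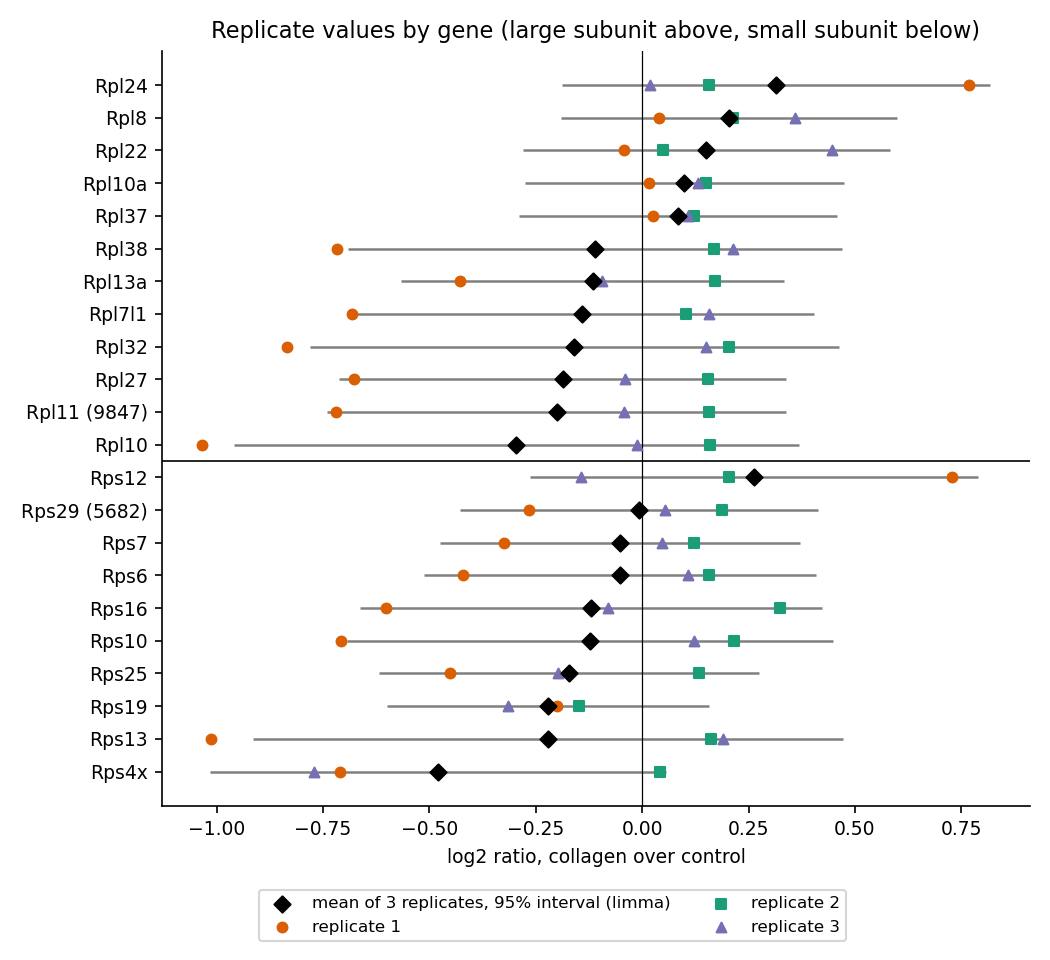
Log2 ratio of collagen over control for the 22 tested ribosomal protein probes in each replicate, with the mean and its 95% interval from limma; large subunit probes are above the line and small subunit probes below. Replicate 2 values crowd between -0.15 and 0.32, replicate 1 values reach from -1.04 to 0.77, and every interval includes 0.

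Among the large subunit proteins, Rpl24, which lies at the face where the subunits meet, had log2 ratios of 0.77, 0.16 and 0.02 in replicates 1, 2 and 3, with a mean of 0.31 (95% interval -0.19 to 0.82). Rpl8, a core protein near the catalytic centre, had 0.04, 0.21 and 0.36. Rpl10a, part of the mobile stalk at the transfer RNA exit site, had 0.02, 0.15 and 0.13. Rpl37 had 0.03, 0.12 and 0.11. These 4 were above 0 in every replicate, yet none was above 0 on all 6 arrays. Rpl22, dispensable for the ribosome but needed for certain T cells in mice, had -0.04, 0.05 and 0.45. Rpl24 and Rps12 were printed in the fourth block column, and loess within printing blocks turned them to -0.14 and -0.094. That loess also turned the signs of Rps7, Rps6, Rpl13a, Rpl38 and Rpl32, printed in other columns. Rps29, in the fourth column, kept its sign. Without the fourth column the highest member mean was 0.20. The other tested large subunit proteins were below 0 in replicate 1 and above 0 in replicate 2.

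Rpl10, one of the last proteins to join the large subunit, had the lowest large subunit mean, -0.30 (95% interval -0.96 to 0.37), from -1.04, 0.16 and -0.01. Rpl32 had -0.83, 0.21 and 0.15. Rpl38, whose loss in mice disturbs translation of Hox messages, had -0.72, 0.17 and 0.21. In all 3 genes the replicate 1 value lay far below the other two, which were close together. Rpl27 had -0.68, 0.16 and -0.04. Rpl13a, known in human cells to leave the ribosome and silence inflammatory messages after interferon gamma, had -0.43, 0.17 and -0.09. Rpl7l1, a relative of Rpl7, had -0.68, 0.10 and 0.16. Replicate 1 was again the lowest in each of these genes. The Rpl11 probe read on all 6 arrays had -0.72, 0.16 and -0.04, from arrays that disagreed strongly, as given further on.

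Among the small subunit proteins, Rps4x, the X-linked form of S4, had the lowest mean of all members, -0.48 (95% interval -1.02 to 0.06, unadjusted p = 0.0703 and adjusted p = 0.872 from limma), from -0.71, 0.04 and -0.77. Its first-scan signals per pixel in replicate 2 were 12022 in collagen RNA and 30799 in control RNA with collagen in Cy3, and 36702 in collagen RNA and 26836 in control RNA with collagen in Cy5. The brighter channel was the Cy5 channel on both arrays. These signals were not scaled between the channels, and after loess the log2 ratios on these arrays were -0.11 and 0.20. Rps12 was the only small subunit probe with a mean above 0, at 0.26, from 0.73, 0.20 and -0.14. Rps19, the protein most often mutated in human Diamond-Blackfan anemia, had -0.20, -0.15 and -0.31 and was the only member below 0 in every replicate. Its spot was dim, at percentiles of 10.4, 10.8 and 35.5.

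Rps6, the substrate that gives S6 kinase its name, had -0.42, 0.16 and 0.11. Rps13 had -1.01, 0.16 and 0.19. Rps10 had -0.71, 0.22 and 0.12. In these 3 genes replicate 1 was below 0 and the other replicates above. Rps7, one of the proteins that can bind Mdm2, had -0.32, 0.12 and 0.05. Rps29 had -0.26, 0.19 and 0.05, and its mean of -0.01 was the closest to 0. Rps16, whose tail touches the transfer RNA, had -0.60, 0.32 and -0.08. Rps25, which some viral messages need for their translation, had -0.45, 0.13 and -0.20. Each of the 22 intervals of the tested members included 0.

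The members moved with the dye. The median log2 ratio of the 22 members was -1.23 in replicate 1, -0.07 in replicate 2 and -0.39 in replicate 3 on the arrays with collagen in Cy3. On the arrays with collagen in Cy5 it was 0.27, 0.39 and 0.48. Every array with collagen in Cy5 thus had a positive median and every array with collagen in Cy3 a negative one. The medians of all tested probes were -0.42, 0.04 and -0.03 with collagen in Cy3 and 0.05, -0.07 and 0.00 with collagen in Cy5. For 10 of 22 members, or 45.5%, the 3 ratios of one orientation all had the opposite sign to the 3 ratios of the other, against 15.5% of all tested probes and 8 of 23 oxidative phosphorylation probes. The count was 12 without replicate 1, 15 without replicate 2 and 12 without replicate 3, against 33.4%, 26.5% and 28% of all tested probes. In 9 of the 10 the Cy5 channel was the higher on all 6 arrays, a pattern shown by 9.15% of all tested probes, and Rpl11 ran the other way. The 10 were Rpl10a, Rpl11, Rpl13a, Rpl22, Rpl27, Rpl38, Rps6, Rps7, Rps13 and Rps29.

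**Figure D4:**
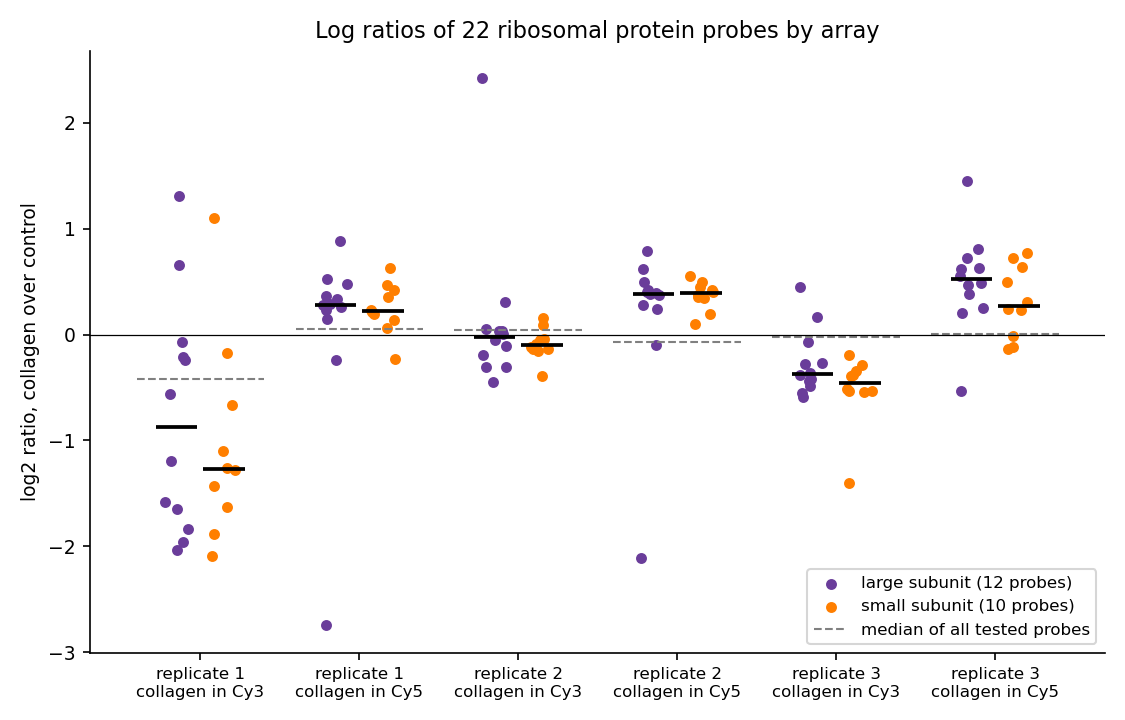
Log2 ratio of collagen over control for the 22 tested ribosomal protein probes on each of the 6 arrays, by subunit; black bars are medians of the members and dashed lines medians of all tested probes. Member medians are above 0 on the 3 arrays with collagen in Cy5 and below 0 on the 3 with collagen in Cy3, and the probe far from the rest on both replicate 2 arrays is Rpl11.

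Rpl38 shows the size of this difference. Its ratios with collagen in Cy3 were -1.96, -0.44 and -0.38, and with collagen in Cy5 they were 0.53, 0.78 and 0.81. The 2 orientations did not overlap, and averaging them within a replicate left -0.72, 0.17 and 0.21. Rps6 had -1.26, -0.14 and -0.28 with collagen in Cy3 and 0.42, 0.45 and 0.50 with collagen in Cy5. For both genes the sign on a single array followed which RNA carried Cy5.

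The ratio of channel B over channel A, averaged over both orientations so that collagen and control weigh equally, puts this lean into 1 value per probe. With each scan centred on its median, the members had a median of 0.89, against 0.14 for all tested probes, and 20 of 22 were above 0. Oxidative phosphorylation probes, also bright, had a median of 0.70, with 20 of 23 above 0. Mitochondrial ribosomal protein probes had 0.43, with 17 of 22 above 0. After loess smoothing against intensity the members had a median of 0.44, against 0.05 for all tested probes, and 21 of 22 were above 0, against 55.4% of all. The lean was not particular to the members: mitochondrial ribosomal protein probes had 0.27 after loess, with 20 of 22 above 0. Oxidative phosphorylation probes had 0.12, with 15 of 23 above 0. With 1 replicate left out the member median ran from 0.80 to 1.02 when median-centred and from 0.32 to 0.57 after loess. Limma called 1.6% of probes, all lower in channel B, among them 1 of the 22 members in the median-centred values. After loess it called 0.432% of probes and 0 members. The member that was called was Rpl11 probe 9847, and it went against the others.

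Rpl11, which with Rpl5 and the 5S ribosomal RNA can bind Mdm2 and so stabilise p53, had a channel B over channel A ratio of -1.90 on the log2 scale (adjusted p = 0.000174, limma). The adjusted p ran up to 0.0841 over the alternatives that tested this probe. It was 0.0841 after loess, 0.0643 without replicate 2 and 0.0454 with the replicate block. With the first scan only, Rpl11 was not tested. There 1 of 18 members was called, and all 18 were higher in channel B. The channel B signal of Rpl11 probe 9847 was close to background, at 1.21 to 2.20 times it over the 6 arrays. Its collagen over control ratios were 1.31, 2.42 and 0.45 with collagen in Cy3 and -2.75, -2.11 and -0.54 with collagen in Cy5. All 3 replicates were thus higher in the Cy3 channel, with the smallest difference in replicate 3. First-scan signals per pixel were 3511 in collagen RNA and 592 in control RNA in replicate 1 with collagen in Cy3, and 271 in collagen RNA and 1835 in control RNA with collagen in Cy5. The other Rpl11 probe was read in replicate 3 alone, with ratios of -0.42 with collagen in Cy3 and 0.06 with collagen in Cy5. The 2 probes of this gene therefore leaned to opposite dyes in replicate 3.

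No difference between the subunits was shared by all ways of averaging. The large subunit median was -0.55, 0.16 and 0.12 in replicates 1, 2 and 3, against -0.44, 0.16 and -0.02 for the small subunit. The difference, large minus small, was -0.12, 0.00 and 0.14 (mean 0.0059 ± 0.127 SD, n = 3). It changed sign between replicates, and its mean was far smaller than its spread. On single arrays the difference ran from 0.00 to 0.40. Averaging these array differences within a replicate gave 0.23, 0.04 and 0.16 (mean 0.143 ± 0.0964 SD, n = 3). The sign in replicate 1 thus depended on whether medians were taken before or after the 2 arrays were averaged. The 3 replicates cannot reach p under 0.05 in an exact sign test, and no test was made.

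The 12 members read in replicate 3 alone have 1 replicate and no test. Their replicate 3 ratios ran from -0.18 for Rpl3 to 0.16 for Rps29, with Rps27 at 0.02 and Rpl34 at 0.11. With collagen in Cy3 the ratio was below 0 for 11 of the 12, the exception being Rpl34 at 0.00. With collagen in Cy5 it was above 0 for 10 of the 12, the exceptions being Rpl3 at -0.15 and Rps15 at -0.06. Of the 2316 tested probes, which do not include these 12, 1068 were above 0 with collagen in Cy3 and 1173 with collagen in Cy5. Most of the 12 thus leaned toward the Cy5 channel in this 1 replicate. They were not set beside equally bright probes read in replicate 3 alone. Of the members read on some arrays, Rpl35 had 1.70 in replicate 1 and 0.21 in replicate 3, and Rps4l had -1.14 in replicate 1 and 0.14 in replicate 2. Rpl3l, the muscle form of Rpl3, was dim wherever it was read, at percentiles of 3.91, 28.3 and 34.2, and had -0.39 in replicate 3. Rpl26 had -0.18 in replicate 3, where its percentile was 94.7.

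Gene groups that work with the ribosome also held no called probe. None of the tested probes of the lists that follow passed an adjusted p of 0.05. Of 52 mitochondrial ribosomal protein probes, which serve the separate ribosome of mitochondria, 22 were tested, 4 above 0 and 18 below, with a median of -0.12. The 2 with the smallest p were Mrpl2 at -0.30 and Mrpl17 at -0.27. Of 33 ribosome biogenesis probes 20 were tested, 6 above 0 and 14 below, with a median of -0.10. Ebna1bp2, a nucleolar assembly factor, had 2.69, 0.07 and -0.08, and Taf1c, a subunit of the selectivity factor of RNA polymerase I, had 1.96, 0.18 and 0.09. Both values rested on replicate 1. Both probes were printed in the fourth block column, as were Rptor, Ndufv2 and Ccng1 below and Rpl24 and Rps12, the members with the highest means. Rps29 probe 5682 lay there too, with a mean of -0.01, and Ccng1 had a mean below 0. Of the 2316 tested probes, 1677 lay outside this column. The part of the column in these values was not tested.

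Of 24 initiation and termination factor probes 8 were tested, 2 above 0 and 6 below, with a median of -0.12. Eif4e, which binds the cap of the message, had -0.41, -0.21 and -0.24, and Eif3m, a subunit of the initiation factor that sits on the small subunit, had -0.62, -0.09 and -0.03. Both were below 0 in all 3 replicates without passing the test, with an adjusted p of 0.872 each from limma. Of 9 mTOR and S6 kinase probes 3 were tested and all 3 means were above 0, with a median of 0.16. Rptor, the scaffold of mTOR complex 1, had 1.58, -0.02 and 0.32, and Rheb, the GTPase that activates this complex, had 0.74, -0.13 and -0.14. The highest value again came from replicate 1 in both.

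Of 51 oxidative phosphorylation probes, a further set of abundant housekeeping messages, 23 were tested, 13 above 0 and 10 below, with a median of 0.01. Ndufb4 had -0.84, 0.05 and -0.10 and Ndufv2 had 2.60, 0.16 and -0.49. In replicate 2, 21 of these 23 were above 0, against 21 of 22 ribosomal proteins and 46% of all tested probes. In replicate 3 only 4 of the 23 were above 0, whereas 13 of 22 ribosomal proteins were. Of 6 probes for p53 targets linked to ribosomal stress 2 were tested, Ccng1 at -0.25 and Cdkn1a at 0.01. Both elongation factor probes were read in replicate 3 alone. Fau, whose product is cut to give Rps30, had -0.14, 0.29 and -0.05, and no probe was named for the P-stalk proteins of the large subunit.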

How the data were processed

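Per the labels' protocols, TRIzol-extracted total RNA was reverse transcribed with oligo dT and random primers and coupled to Cy3 or Cy5. The deposited intensity values were background-subtracted sums over the pixels of a spot in channels A and B, set to 0 where a channel was rejected, per the file headers. The deposited saturation factor was a fraction, where 1 meant no saturated pixel, per the file headers. The authors' deposited value table held a log ratio score of unstated base. Against the ratios computed here it correlated at 0.504 to 0.771 per array, and its column medians lay between -0.018 and 0.0015. Its direction was inferred, so it cannot settle the dye of a channel. The sources used here do not give the scanner software.

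The log2 ratio of the 2 channels, B over A, was smoothed by loess (span 0.3) in each scan. Scans were averaged, leaving out saturated ones where another was unsaturated, and ratios were turned to collagen over control. The 2 arrays of a replicate were averaged, and limma 3.58.1 in R 4.3.3 tested the 3 means against 0, two-sided. A probe was tested if it had a ratio on all 6 arrays and exceeded 1.5 times background in a channel on at least 4. All 2316 probes with a ratio on all 6 arrays met the background rule, so it removed none. Arrays have no read depth, and 3 replicates limit the precision. Symbols came from the platform annotation, which names 1 gene for 9066 probes, several for 12 and none for 1002. Probe sequences were not used here, so cross-hybridisation among ribosomal protein genes and their pseudogenes was not tested. The limma code was tested on simulated data.

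All tested members were named, and of each other list the 2 probes with the smallest p. The members and lists were chosen with earlier results of these data known. Alternatives covered centring, print-tip loess, normexp, scans, saturation, filters, single orientations, array weights, the deposited table, each replicate left out and a fit to the 6 arrays with the replicate number as a block, since the 2 arrays of a number carry the same replicate's RNA. Their consensus correlation in that fit was -0.187. Loess for the channel ratio and leaving out replicates in the detection, orientation and signal counts, the subunit difference by array and the range of block rows were chosen after seeing the data.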

Additional observations from a re-analysis of the deposited data

Results flagged for a closer look

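Rpl27 and Rpl7l1 each had 1 array far from the other 5, replicate 1 with collagen in Cy3, at -1.58 and -1.65 on the log2 scale. Such a gap would be found in about 1 of 20 sets of 6 independent values from one normal distribution. These ratios came in dye-swapped pairs from 3 replicates, and this array had the widest spread of ratios, so that rate does not carry over. For 10 members every ratio of one orientation had the opposite sign to every ratio of the other. The mean with collagen in Cy5 minus the mean with collagen in Cy3 was 1.64 for Rpl38, 1.25 for Rpl22, 1.22 for both Rps13 and Rps7 and 1.02 for Rps6. It was 0.94 for Rpl27, 0.89 for Rpl13a, 0.74 for Rpl10a and 0.59 for Rps29. For Rpl11 it was -3.19. These differences were not tested as such, except that the channel ratio of Rpl11 was tested as described above.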

How the results depend on the processing

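The collagen call count was 0 under all alternatives but one, and no member was called under any of them. Collagen in Cy5 alone gave 27 calls among the 2834 probes tested there and 0 among the 23 members tested, with a member median of 0.33. Collagen in Cy3 alone gave a member median of -0.56. With the replicate block the fit to 6 arrays gave 0 calls and a member median of -0.12, with 6 members above 0 and 16 below, and the block changed no call there. Its fit of the channel ratio gave 8 calls, against 37 in the main fit, 19 with the first scan only, 10 after loess and 29 to 104 with 1 replicate left out (76 without replicate 2 and 104 without replicate 3). The member median ran from -0.26 to 0.12 with 1 replicate left out. Array weights, which gave replicate 1 the lowest weight, turned the member median to 0.12. With them 20 members were above 0 and 2 below, against 43.4% of all tested probes above 0. In the authors' deposited table the member median was 0.067 on that table's own scale. There 10 of 13 members were above 0, against 42% of all probes tested in it. The large minus small difference was 0.16 with print-tip loess and 0.14 with medians per array. The count of 22 members read on every array was 13 in the authors' table and 3 when both channels had to exceed 2 times background on all arrays. The median signal percentile stayed between 73.8 and 85.3 with 1 replicate left out.

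Signs of single members, none of which passed the test, turned as follows on the log2 scale. Array weights gave Rps7 0.094, Rps6 0.13, Rpl13a 0.11, Rpl38 0.15, Rps25 0.059, Rps16 0.23, Rpl27 0.095, Rps10 0.17, Rpl10 0.089, Rpl32 0.16, Rps13 0.12, Rps29 0.15, Rpl7l1 0.083, Rpl11 0.094. Collagen in Cy5 alone gave Rps7 0.56, Rps6 0.46, Rps4x 0.18, Rpl13a 0.33, Rpl38 0.71, Rps25 0.18, Rps16 0.32, Rpl27 0.28, Rps10 0.44, Rpl10 0.17, Rpl32 0.49, Rps13 0.39, Rps29 0.29, Rpl7l1 0.19. Collagen in Cy3 alone gave Rpl10a -0.27, Rpl24 -0.078, Rpl22 -0.47, Rpl37 -0.16, Rpl11 1.39. The authors' deposited table, on its own scale, gave Rpl27 0.080, Rps10 0.0083, Rpl32 0.036, Rps13 0.14, Rps29 0.067, Rpl11 0.12. Median centring gave Rpl10a -0.31, Rpl8 -0.24, Rpl24 -0.094, Rpl38 0.0069, Rps16 0.013. Print-tip loess gave Rps7 0.17, Rps6 0.16, Rpl24 -0.14, Rpl13a 0.034, Rpl38 0.13, Rps12 -0.094, Rpl32 0.067. Normexp gave Rps7 0.13, Rps6 0.053, Rps10 0.0052, Rps29 0.044. Centring replicates gave Rps7 0.026, Rps6 0.026, Rps29 0.071. The first scan gave Rpl38 0.0041, Rps29 0.0021. Leaving out 1 replicate gave Rps7 -0.14 to 0.084, Rps6 -0.16 to 0.13, Rpl13a -0.26 to 0.039, Rpl38 -0.27 to 0.19, Rps16 -0.34 to 0.12, Rpl27 -0.36 to 0.058, Rps10 -0.29 to 0.17, Rpl10 -0.52 to 0.074, Rpl32 -0.34 to 0.18, Rps13 -0.43 to 0.18, Rps29 -0.11 to 0.12, Rpl7l1 -0.29 to 0.13, Rpl11 -0.38 to 0.057, with the upper value without replicate 1 in each. The causes were not tested.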
